A study of Mus musculus with 12 samples.

Results

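Neural stem cells and serum-grown astrocytes, both grown from normal cortex in a mouse study of one-carbon metabolites and cell identity, were compared gene by gene. The members of the comparison are the 15641 genes, of 53932 gene identifiers measured, that reached 1 FPKM in at least 3 of these 6 libraries and carried the status OK in all 6; 11969 of them are protein coding. A further 38260 stayed below that level and 31 lacked the status OK in some library. Just inside, Glt8d2 had a third-highest value of 1.0001 FPKM, and just outside, Slitrk6 had 0.99962 FPKM. FPKM is a count of fragments scaled to the length of the transcript and to the depth of the library. RNA sequencing covered 12 libraries of C57BL/6 mice, 3 in each of 4 groups, and the 6 libraries of MIM-Astrocytes and Glioblastoma entered only the estimate of the spread. NSC came from cortex at embryonic day 14.5 and grew as neurospheres in Neurobasal with B27, with EGF and FGF2 at 20 ng/mL, for at most 3 passages. Astrocytes grew attached to polylysine in DMEM-F12 with B27, Glutamax and 10% heat-inactivated serum. The growth text allows a pair of sources for the astrocytes, either postnatal cortex sorted for GLAST or neurospheres switched to serum medium, and does not say which one these libraries hold. Their tissue and age labels read cortex and E14.5, as those of NSC do. Medium, attachment, serum and, where the cells were postnatal, age therefore differ together between the groups and cannot be told apart. Levels of Xist and of Y-linked genes, given below, differed as well, and the part of the mix of sexes was not tested.

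Neural stem cells of the embryonic cortex divide, keep themselves undifferentiated through Notch signalling between neighbours, and give rise first to neurons and later to astrocytes and oligodendrocytes. EGF and FGF2 hold them in that state in culture. Astrocytes take up glutamate and potassium, move water, supply lipids and lactate, and in serum or after injury turn on intermediate filament, complement and acute phase genes.

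The 2 cultures differed at most of the genes measured. Of the 15641 genes, 11596 (74.1%) were called, which means an adjusted p below 0.05 in limma with Benjamini-Hochberg adjustment; 6042 (38.6%) were higher in NSC and 5554 (35.5%) lower. A difference of at least 2-fold on the scale of log2(FPKM + 1) was called higher for 2156 genes (13.8%) and lower for 2212 (14.1%). The 3 libraries of one culture lay wholly above those of the other for 11766 genes (75.2%). Counts of list members below are to be read against these shares. A gene below 1 FPKM in every library of one culture could pass the filter only through the other culture. The direction of such a member was therefore fixed in part by the filter. The median difference over all tested genes was 0.056, and the middle 50% of genes lay between -0.55 and 0.59. Levels are given as mean ± SD over 3 libraries, differences as NSC minus Astrocytes on the scale of log2(FPKM + 1), which understates the change of weakly expressed genes. The labels do not say that libraries of a group are separate cultures, so the p-values measure the spread between these libraries only.

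**Figure D1:**
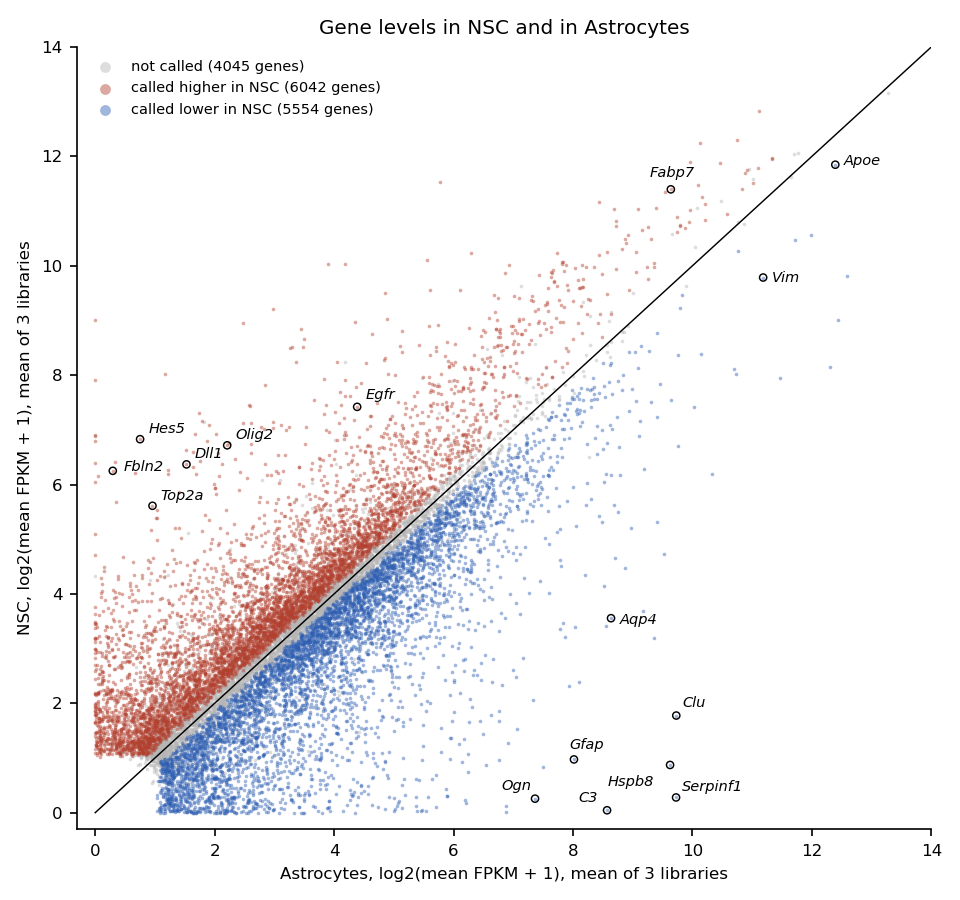
Mean level of each of the 15641 tested genes in Astrocytes (horizontal) and NSC (vertical), both as log2(FPKM + 1) of the mean of 3 libraries, with the line of equal levels. Red genes were called higher in NSC (6042), blue genes lower (5554) and grey genes not called (4045); Serpinf1, Hspb8, C3 and Clu lie far to the lower right and Hes5 and Fbln2 near the left edge.

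Libraries of one culture resembled each other closely, with correlations across genes of 0.972 to 0.98 within NSC and 0.968 to 0.973 within Astrocytes, against 0.767 to 0.775 between them; genes are not independent replicates. Read as counting error only, the intervals deposited with the values imply 11480000 to 12080000 fragments in NSC and 10070000 to 11410000 in Astrocytes. The intervals have half-widths of 9.32% to 10.6% of the value at about 10 FPKM and of 28.9% to 32.6% at about 1 FPKM. The sum of FPKM was higher in NSC (763800 ± 42390 against 580300 ± 57940), and protein-coding genes held 42.3% ± 3.16 of it against 60.8% ± 3.95, each with an exact two-sided permutation p = 0.1, which is the lowest that 3 against 3 can reach. The largest parts of the remainder were ribozyme genes, at 15.3% ± 5.17 of the sum in NSC and 12.4% ± 2.06 in Astrocytes, and misc_RNA genes. The latter held 13.45% ± 3.19 and 9.2% ± 5.21. Both classes varied among libraries of a group, ribozyme genes from 9.4% to 18.9% in NSC and misc_RNA genes from 5.92% to 15.2% in Astrocytes. The snoRNA genes held 6.62% ± 1.06 of the sum in NSC and 2.68% ± 0.437 in Astrocytes. A common FPKM total moved the median difference by -0.34 and the calls to 3539 higher and 7667 lower, and a common protein-coding total moved it by 0.10 and the calls to 6909 higher and 5050 lower. The share of calls that were higher in NSC was 52.1%, and became 31.6% and 57.8% under these scalings. Calls of genes named below that ended under a scaling are given with their adjusted p.

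The genes by which the cultures are named went with their labels in part. Of 24 neural stem and progenitor genes tested, 17 were higher in NSC and 5 lower (median log2 difference 0.95), and of 30 astrocyte genes 10 were higher and 17 lower (-0.53). With a common FPKM total 5 astrocyte genes were higher and 18 lower (-0.92). Hes5, a repressor that Notch switches on in progenitors (ENSMUSG00000048001.7, bases 154960923 to 154962371 of chromosome 4, on the plus strand), stood at 114, 125 and 99.2 FPKM in NSC and 0.583, 0.782 and 0.685 FPKM in Astrocytes (log2 difference 6.07, SE 0.10, adjusted p = 7.364e-12). Gfap, whose filaments characterise astrocytes (ENSMUSG00000020932.14, bases 102887336 to 102900912 of chromosome 11, on the minus strand), stood at 0.851, 0.883 and 1.16 FPKM in NSC and 259.6, 273 and 241 FPKM in Astrocytes (log2 difference -7.04, SE 0.077, adjusted p = 7.092e-13). In both cases every library of one culture was far outside the range of the other. Aqp4, the water channel of astrocyte endfeet, was 10.8 ± 0.733 against 397 ± 27.7 FPKM (log2 difference -5.08, SE 0.064, adjusted p = 1.498e-12). Clu, the secreted chaperone clusterin, stood at 2.42 ± 0.282 against 848 ± 86.7 FPKM (log2 difference -7.95, SE 0.091, adjusted p = 9.059e-13). In bulk libraries, fewer cells of a type and less RNA per cell cannot be told apart.

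Several genes often used to name either cell type were abundant in both. Sox2, the transcription factor of neural progenitors, stood at 107, 112 and 94.2 FPKM in NSC and 60, 68.5 and 54.5 FPKM in Astrocytes (log2 difference 0.77, SE 0.092, adjusted p = 2.391e-05), so each NSC library lay above each Astrocytes library but by less than 2-fold. Nes, the progenitor filament nestin, was 58.7 ± 4.94 against 43.5 ± 3.99 FPKM (log2 difference 0.43, SE 0.079, adjusted p = 0.000575), a call that ended with a common FPKM total (adjusted p = 0.776). Pax6, a factor of cortical radial glia, went the other way (17.9 ± 0.94 against 22.1 ± 2.03 FPKM, log2 difference -0.29, SE 0.079, adjusted p = 0.00666). Fabp7, the brain lipid-binding protein of radial glia, reached 2696 ± 248 against 796 ± 97 FPKM (log2 difference 1.76, SE 0.14, adjusted p = 6.819e-07), one of the most abundant messages of NSC. Vim, the filament vimentin, was high in both and higher in Astrocytes (881 ± 75.5 against 2326 ± 216 FPKM, log2 difference -1.40, SE 0.12, adjusted p = 1.51e-06). Lrrn1, a leucine-rich membrane protein, stood at 108 ± 6.2 against 3.71 ± 0.315 FPKM (log2 difference 4.53, SE 0.062, adjusted p = 2.197e-12). The stem list members lower in NSC, beside Vim and Pax6, were the cadherin Cdh2 (-1.42), the RNA-binding protein Msi1 (-1.36) and the matrix protein Tnc (-0.50).

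The 4 members of the astrocyte list described next were higher in NSC, not lower. Slc1a3, the glutamate transporter GLAST, was 557 ± 41.9 against 396 ± 32.4 FPKM (log2 difference 0.49, SE 0.13, adjusted p = 0.00453). Its call ended with a common FPKM total (adjusted p = 0.445) and with quantile normalization (0.143), where its difference was -0.12. It is also the surface protein on which one of the possible astrocyte sources is sorted. Aldh1l1, a folate enzyme, was 97.2 ± 7.02 against 70.8 ± 5.82 FPKM (log2 difference 0.45, SE 0.077, adjusted p = 0.000346; adjusted p = 0.651 with a common FPKM total). S100b, a calcium-binding protein, was 7.15 ± 0.318 against 5.97 ± 0.573 FPKM (log2 difference 0.23, SE 0.068, adjusted p = 0.0113; adjusted p = 0.183 with a common FPKM total, where its difference was -0.12). Agt, angiotensinogen, was 24.7 ± 1.36 against 4.71 ± 0.56 FPKM (log2 difference 2.17, SE 0.10, adjusted p = 1.277e-08). Nfib, a factor of the glial switch, was likewise higher in NSC (1.77). Gja1, the gap junction protein connexin 43, was lower (114 ± 15.9 against 244 ± 18.2 FPKM, log2 difference -1.10, SE 0.16, adjusted p = 9.811e-05), as was Cd44, a hyaluronan receptor (5.17 ± 0.307 against 28.3 ± 0.613 FPKM, log2 difference -2.25, SE 0.053, adjusted p = 7.299e-11).

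**Figure D2:**
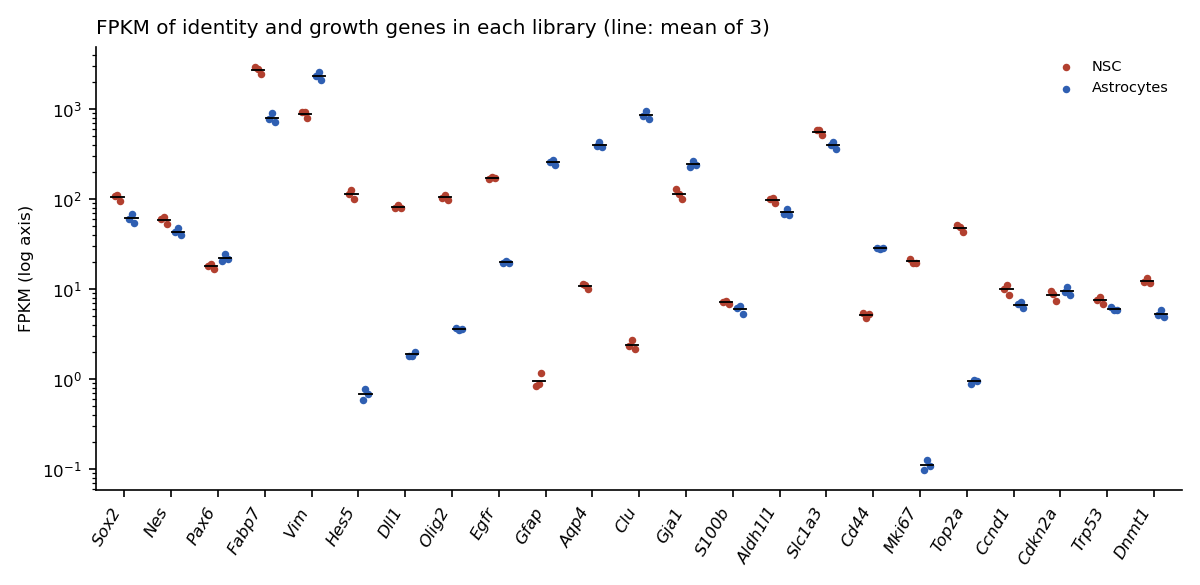
FPKM of 23 identity and growth genes in each of the 3 NSC libraries (red) and 3 Astrocytes libraries (blue), on a log axis, with the mean of 3 as a line. Hes5, Dll1, Olig2 and Mki67 are high in all NSC libraries, Gfap, Aqp4 and Clu in all Astrocytes libraries, while Sox2, Nes, Pax6, S100b, Aldh1l1 and Slc1a3 lie close together in both.

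Among named genes other than pseudogenes, small RNAs and histone copies, with at least 5 FPKM in the higher culture and no overlap, those much higher in Astrocytes included secreted and stress proteins. Serpinf1, the secreted serpin PEDF (ENSMUSG00000000753.15, bases 75409769 to 75422701 of chromosome 11, on the minus strand), stood at 0.314, 0.24 and 0.0842 FPKM in NSC and 814, 946 and 778 FPKM in Astrocytes (log2 difference -9.45, SE 0.10, adjusted p = 7.501e-13). Hspb8, a small heat shock protein, stood at 0.852, 0.984 and 0.657 FPKM in NSC and 781, 877 and 709 FPKM in Astrocytes (log2 difference -8.75, SE 0.088, adjusted p = 3.99e-13). C3, the central complement component, stood at 0.00696, 0.0397 and 0.0463 FPKM in NSC and 395, 360.3 and 382 FPKM in Astrocytes (log2 difference -8.53, SE 0.049, adjusted p = 1.293e-14). These messages were below 1 FPKM in every NSC library and at least 360.3 FPKM in every Astrocytes library. Beside Clu and Gfap, described above, genes taken by this rule included Ogn, a small leucine-rich proteoglycan (0.194 against 164 FPKM, -7.11), Lbp, which binds lipopolysaccharide (0.013 against 116 FPKM, -6.85), the organic anion transporter Slco1a4 (-6.75), Thbs1, a matrix glycoprotein (0.781 against 179.6 FPKM, -6.67), Fbxo2, an F-box protein of glycoprotein turnover (-6.17), Fam107a (-6.03) and the scaffold Ahnak (-5.96).

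By the same rule, the genes much higher in NSC included factors of progenitors and secreted proteins. Myt1, a zinc finger factor of neural progenitors (ENSMUSG00000010505.16, bases 181763332 to 181827797 of chromosome 2, on the plus strand), stood at 70.4, 68.4 and 71.5 FPKM in NSC and 0.0321, 0.0135 and 0.0385 FPKM in Astrocytes (log2 difference 6.11, SE 0.052, adjusted p = 1.497e-13). Fbln2, a matrix fibulin, stood at 75.1 ± 6.38 against 0.226 ± 0.0166 FPKM (log2 difference 5.95, SE 0.10, adjusted p = 6.751e-12). Slc6a11, the GABA transporter GAT3, stood at 72.7 ± 4.84 against 0.582 ± 0.0954 FPKM (log2 difference 5.54, SE 0.066, adjusted p = 1.151e-12). Each was under 1 FPKM in all 3 Astrocytes libraries. Rap1gap, which switches off the small GTPase Rap1, was also higher (72.5 against 1.34 FPKM, 4.98), with the imprinted gene Mest (110.2 against 2.64 FPKM, 4.94), the matricellular protein Smoc1 (84.8 against 2.37 FPKM, 4.67), Mfge8, a bridging protein of phagocytosis (502 against 19.5 FPKM, 4.62), and the growth factor midkine, Mdk (94.6 against 3.14 FPKM, 4.53). By a stricter description with no test, 29 genes reached 5 FPKM in all 3 NSC libraries and stayed below 0.1 FPKM in all 3 Astrocytes libraries, 12 of them protein coding, and 35 genes, 28 of them protein coding, did the reverse.

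Notch pathway genes were more often higher than lower in NSC. Of 23 tested, 14 were higher in NSC and 5 lower (median 0.54). Among the ligands, Dll1 (ENSMUSG00000014773.13, bases 15367354 to 15376872 of chromosome 17, on the minus strand) stood at 80.1, 86 and 78.7 FPKM in NSC and 1.83, 1.82 and 2 FPKM in Astrocytes (log2 difference 4.84, SE 0.085, adjusted p = 1.126e-11). Dll3, which acts within the cell, stood at 15.5 ± 0.833 against 0.0883 ± 0.0717 FPKM (log2 difference 3.92, SE 0.065, adjusted p = 7.42e-12). Both were present in each NSC library and at or below about 2 FPKM in each Astrocytes library. Dlk1, a related protein without the receptor-binding domain of the classical ligands, was lower (0.238 ± 0.0468 against 2.93 ± 0.544 FPKM, log2 difference -1.66, SE 0.13, adjusted p = 7.521e-07). The receptors differed little: Notch1 was 37.7 against 28.7 FPKM (0.39; adjusted p = 0.991 with a common FPKM total), Notch2 23.3 against 27.5 FPKM (-0.23; not called under 7 of 16 alternatives, adjusted p = 0.0538 to 0.413), and Notch3 5.15 against 5.06 FPKM (adjusted p = 0.807). Rbpj, the DNA-binding partner of all Notch receptors, was 20 against 18.8 FPKM (adjusted p = 0.32). Among the targets, Hes5 and Nrarp were higher in NSC (6.07 and 3.72), whereas Hey1, a related repressor, was lower (14.1 ± 1.62 against 68.7 ± 7.5 FPKM, log2 difference -2.21, SE 0.094, adjusted p = 5.661e-09). The glycosyltransferases Lfng and Mfng, which tune ligand choice, were higher (1.98 and 2.96). RBPJ is known to bind GTGGGAA, and the Hes5 promoter is shown because Hes5 was the Notch gene that differed most; capitals mark that motif in the 120 bases before the RefSeq start (chr4:154960803-154960922, plus strand, GRCm38.p6).
Hes5: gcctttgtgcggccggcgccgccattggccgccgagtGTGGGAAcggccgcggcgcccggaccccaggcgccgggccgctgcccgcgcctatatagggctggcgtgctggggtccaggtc
The motif, read on both strands of the 250 bases before the start, was present for Hes5 and Hey2 of 4 target genes with an entry in the RefSeq table, and in 5.42% of all 32851 promoters of that table. A match is a description of letters, not a shown site.

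Proneural, oligodendrocyte and SOX factors were higher in NSC. All 11 tested of 21 proneural and early neuronal regulators were called higher (median 2.22), among them Sox11 (10.9 ± 0.484 against 1.4 ± 0.0268 FPKM, log2 difference 2.31, SE 0.047, adjusted p = 3.019e-11), while the Dlx factors and Neurod1 stayed below the filter. Dll3, also of this list, passed the filter through NSC alone. Of 12 oligodendrocyte lineage genes, 11 were higher and 1 lower (median 2.47). Olig2, a factor of progenitors and of the oligodendrocyte lineage (ENSMUSG00000039830.9, bases 91225457 to 91228677 of chromosome 16, on the plus strand), stood at 104, 111 and 97.7 FPKM in NSC and 3.71, 3.56 and 3.62 FPKM in Astrocytes (log2 difference 4.50, SE 0.063, adjusted p = 2.391e-12). Pdgfra, the PDGF receptor of oligodendrocyte progenitors, stood at 24.4 ± 1.44 against 0.375 ± 0.0288 FPKM (log2 difference 4.21, SE 0.051, adjusted p = 1.268e-12). Gpr17, a receptor of cells committed to that lineage, stood at 8.14 ± 0.444 against 0.0165 ± 0.00548 FPKM (log2 difference 3.17, SE 0.051, adjusted p = 6.543e-12). All 3 NSC libraries held these early lineage messages. The late myelin genes Mog, Mag and Mobp were below 1 FPKM in all 6 libraries. SOX factor genes were mostly higher in NSC, 12 of 13 higher (median 1.75), with Sox8 at 92.3 against 7.33 FPKM (3.49) and Sox21 at 27.1 against 6.89 FPKM (1.83); Sox9, needed for glia, was the one lower (12.9 against 19 FPKM, -0.51). Of 12 neuronal genes, 9 were higher and 2 lower (median 1.35), with Dcx, of migrating neuroblasts, at 3.57 ± 0.127 against 0.0286 ± 0.0118 FPKM (log2 difference 2.15, SE 0.081, adjusted p = 2.159e-09). Map2 stood at 286 against 102 FPKM (1.47) and Ina at 3.24 against 0.519 FPKM (1.48). Syt1 and Gap43, of synaptic vesicles and growth cones, were lower (-1.77 and -1.94), and 10 neuronal genes, Rbfox3, Nefl and Slc17a7 among them, were below the filter. Summed over the 19 oligodendrocyte genes the level was 597 to 696 FPKM in NSC and 112 to 131 FPKM in Astrocytes, and the part of lineage-committed cells in the NSC values was not tested.

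Receptors and outputs of growth factor signalling were mostly higher in NSC. Of 25 tested, 18 were higher and 3 lower (median 1.42; 17 and 5 with a common FPKM total). Egfr, which binds EGF (ENSMUSG00000020122.16, bases 16752203 to 16918158 of chromosome 11, on the plus strand), stood at 167, 173 and 171 FPKM in NSC and 19.7, 20.4 and 19.7 FPKM in Astrocytes (log2 difference 3.03, SE 0.069, adjusted p = 5.709e-11), with no overlap between the cultures. Il17rd, a feedback inhibitor of FGF signalling, was 8.23 ± 0.34 against 0.796 ± 0.0457 FPKM (log2 difference 2.36, SE 0.048, adjusted p = 3.01e-11), and the ERK-induced factors Etv1, Etv4 and Etv5 were higher by 3.23, 3.17 and 2.41. The FGF receptors did not move together: Fgfr3 was higher (0.90) and Fgfr1 and Fgfr2 lower (-0.95 and -1.65), as was Met, the receptor of hepatocyte growth factor (0.0719 ± 0.05 against 3.89 ± 0.382 FPKM, log2 difference -2.19, SE 0.079, adjusted p = 1.493e-09). Immediate early genes were mixed, 8 of 17 higher and 6 lower (7 and 8 with a common FPKM total): Egr1 and Egr2 were higher (2.52 and 2.90), Btg2 too (2.29), and Atf3 and Fosl2 lower (-2.42 and -1.37).

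Every mitosis gene tested was higher in NSC, 33 of 33, each by at least 2-fold (median 2.75). Top2a, the topoisomerase that untangles chromosomes (ENSMUSG00000020914.17, bases 98992943 to 99024189 of chromosome 11, on the minus strand), stood at 52.1, 49 and 42.6 FPKM in NSC and 0.89, 0.991 and 0.952 FPKM in Astrocytes (log2 difference 4.65, SE 0.071, adjusted p = 4.989e-12). Mki67, the antigen of cycling cells, stood at 21.6, 19.6 and 19.6 FPKM in NSC and 0.0982, 0.128 and 0.11 FPKM in Astrocytes (log2 difference 4.25, SE 0.049, adjusted p = 9.25e-13). Ube2c, which marks mitotic cyclins for destruction, stood at 17.2 ± 1.21 against 0.0838 ± 0.0447 FPKM (log2 difference 4.07, SE 0.069, adjusted p = 9.098e-12). The astrocyte libraries lay at about 1 FPKM or lower for these genes. Summed over the list the level was 386 to 435 FPKM in NSC and 21.7 to 24.3 FPKM in Astrocytes. Replication genes were higher for 30 of 34 (median 1.07), with smaller differences than mitosis genes: Mcm5 and Mcm7, of the replicative helicase, were 8.7 against 0.848 FPKM (2.39) and 43.4 against 7.69 FPKM (2.35), and Prim1, the primase, 6.3 against 0.874 FPKM (1.97). E2f1, the factor that drives S phase genes, was the exception, lower in NSC (0.826 ± 0.0381 against 1.44 ± 0.186 FPKM, log2 difference -0.41, SE 0.067, adjusted p = 0.000228). Replication-dependent histone genes, whose messages are made in S phase, were higher for 59 of 64 (median 3.56), Hist1h1a at 174 against 4.94 FPKM (4.89) and Hist1h1b at 72.1 against 2.22 FPKM (4.50) and Hist1h2ac at 15.8 against 2.07 FPKM (2.45); only Hist2h2be was lower (-1.02). Histone copies resemble each other, so reads may be shared among them.

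The promoters of 4 mitosis genes are shown because they carry the CCAAT box or TTTGAA, the core of the cell cycle homology element known from genes of G2 and M phase. Capitals mark either motif or its reverse complement in the 120 bases before the RefSeq start (GRCm38.p6): Ccnb1 at chr13:100786487-100786606, minus strand, Ccnb2 at chr9:70421555-70421674, minus strand, Cdc20 at chr4:118437344-118437463, minus strand and Top2a at chr11:99024190-99024309, minus strand.
Ccnb1: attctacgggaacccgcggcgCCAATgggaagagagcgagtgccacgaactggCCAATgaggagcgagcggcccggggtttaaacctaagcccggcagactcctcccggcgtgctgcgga
Ccnb2: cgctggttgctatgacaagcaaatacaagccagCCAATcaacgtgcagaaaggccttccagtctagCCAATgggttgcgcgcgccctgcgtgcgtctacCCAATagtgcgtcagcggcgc
Cdc20: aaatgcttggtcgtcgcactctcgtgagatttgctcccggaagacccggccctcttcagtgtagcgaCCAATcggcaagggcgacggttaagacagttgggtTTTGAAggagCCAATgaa
Top2a: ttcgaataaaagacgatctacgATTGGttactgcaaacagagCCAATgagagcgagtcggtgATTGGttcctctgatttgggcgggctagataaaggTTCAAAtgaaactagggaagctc
Read on both strands of 250 bases, CCAAT was present in 20 of 26 mitosis genes with an entry (76.9%), in 33.8% of all 32851 promoters and in 41.3% of tested genes with an entry, where a gene with several starts counts if any holds it. TTTGAA was present in 10 of 26 (38.5%), in 16% of all promoters and in 12.3% of tested genes. The cyclins Ccnb1 and Ccnb2, which start mitosis, were higher in NSC by 3.95 and 3.01, and Cdc20, which starts its exit, by 3.75.

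Regulators of G1 phase did not follow the mitosis genes as a group. Of 27 G1 and p53 genes 13 were higher and 10 lower (6 and 14 with a common FPKM total). Cdk4, a kinase that opens G1, stood at 446, 432 and 385 FPKM in NSC and 84.5, 94.1 and 81.4 FPKM in Astrocytes (log2 difference 2.27, SE 0.10, adjusted p = 6.245e-09). Rbl1, a pocket protein, stood at 2.92 against 0.658 FPKM (1.24). Ccnd1, the cyclin partner of CDK4, was 9.96 ± 1.27 against 6.72 ± 0.576 FPKM (log2 difference 0.50, SE 0.085, adjusted p = 0.000316; adjusted p = 0.204 with a common FPKM total), whereas the cyclins Ccnd2 and Ccnd3 were lower (-0.88 and -1.44). Cdkn2b, an inhibitor of CDK4, was lower (3.8 against 13.2 FPKM, -1.57), and so was Gadd45a, a damage response gene (9.57 against 56.6 FPKM, -2.45). Cdkn2a, which encodes p16 and p19ARF, was not called (8.57 ± 1.06 against 9.51 ± 1.04 FPKM, log2 difference -0.14, adjusted p = 0.204), but was called lower with median-of-ratios scaling (adjusted p = 0.0447) and a common FPKM total (0.000723). Trp53 was 7.56 ± 0.7 against 5.97 ± 0.275 FPKM (log2 difference 0.29, SE 0.083, adjusted p = 0.00848; adjusted p = 0.584 with a common FPKM total, where its difference was -0.056), and its target Eda2r 16.4 against 4.95 FPKM (1.55).

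Ribosomal protein genes were higher in NSC nearly throughout, 80 of 81 with none lower (median 1.69; 77 higher and none lower with a common FPKM total). Rpl4, of the large subunit, stood at 548, 527 and 451 FPKM in NSC and 136, 149 and 121 FPKM in Astrocytes (log2 difference 1.90, SE 0.10, adjusted p = 3.35e-08). Rps20, of the small subunit, stood at 450.0 ± 50.6 against 88.7 ± 12.3 FPKM (log2 difference 2.33, SE 0.11, adjusted p = 1.565e-08) and Rps27 at 105 ± 10.7 against 22.6 ± 3.12 FPKM (log2 difference 2.17, SE 0.12, adjusted p = 3.413e-08). Rps27l, a relative of Rps27, was the only one not called (113 against 102 FPKM), and was called higher with a common protein-coding total (adjusted p = 0.0154). Processed pseudogenes, many of which are copies of such genes that can share their reads, did not follow them as closely. Of 1427 tested, 608 (42.6%) were higher and 227 (15.9%) lower, against 38.6% and 35.5% of all tested genes. Nuclear genes of the respiratory chain went the other way, 63 of 78 lower and 2 higher (median -0.55; 63 and 6 with a common protein-coding total), 8 of them lower by at least 2-fold. Those 8 include Sdha, of complex II, at 75.3 against 165 FPKM (-1.12), Ndufb10, of complex I, 54.1 against 137 FPKM (-1.32) and Cox7a1, a subunit typical of muscle, 2.9 against 19.5 FPKM (-2.39). The 2 higher were Cox8b (1.88) and Atp5g2 (0.53), the latter not called with quantile normalization, a common FPKM total, no filter, or without NSC replicate 1 or Astrocytes replicate 2 or 3 (adjusted p = 0.0655 to 0.503). Protein genes of the mitochondrial genome were higher for 10 of 13 with none lower (median 0.51), but 2 higher and 1 lower with quantile normalization or a common FPKM total. The genes mt-Atp8 and mt-Nd6 (1.06 and 1.00), of ATP synthase and complex I, were higher, and mt-Nd1 (0.62) was among the calls that ended, with a difference of -0.12 (adjusted p = 0.263) under quantile normalization and of 0.22 (0.111) under a common FPKM total.

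**Figure D3:**
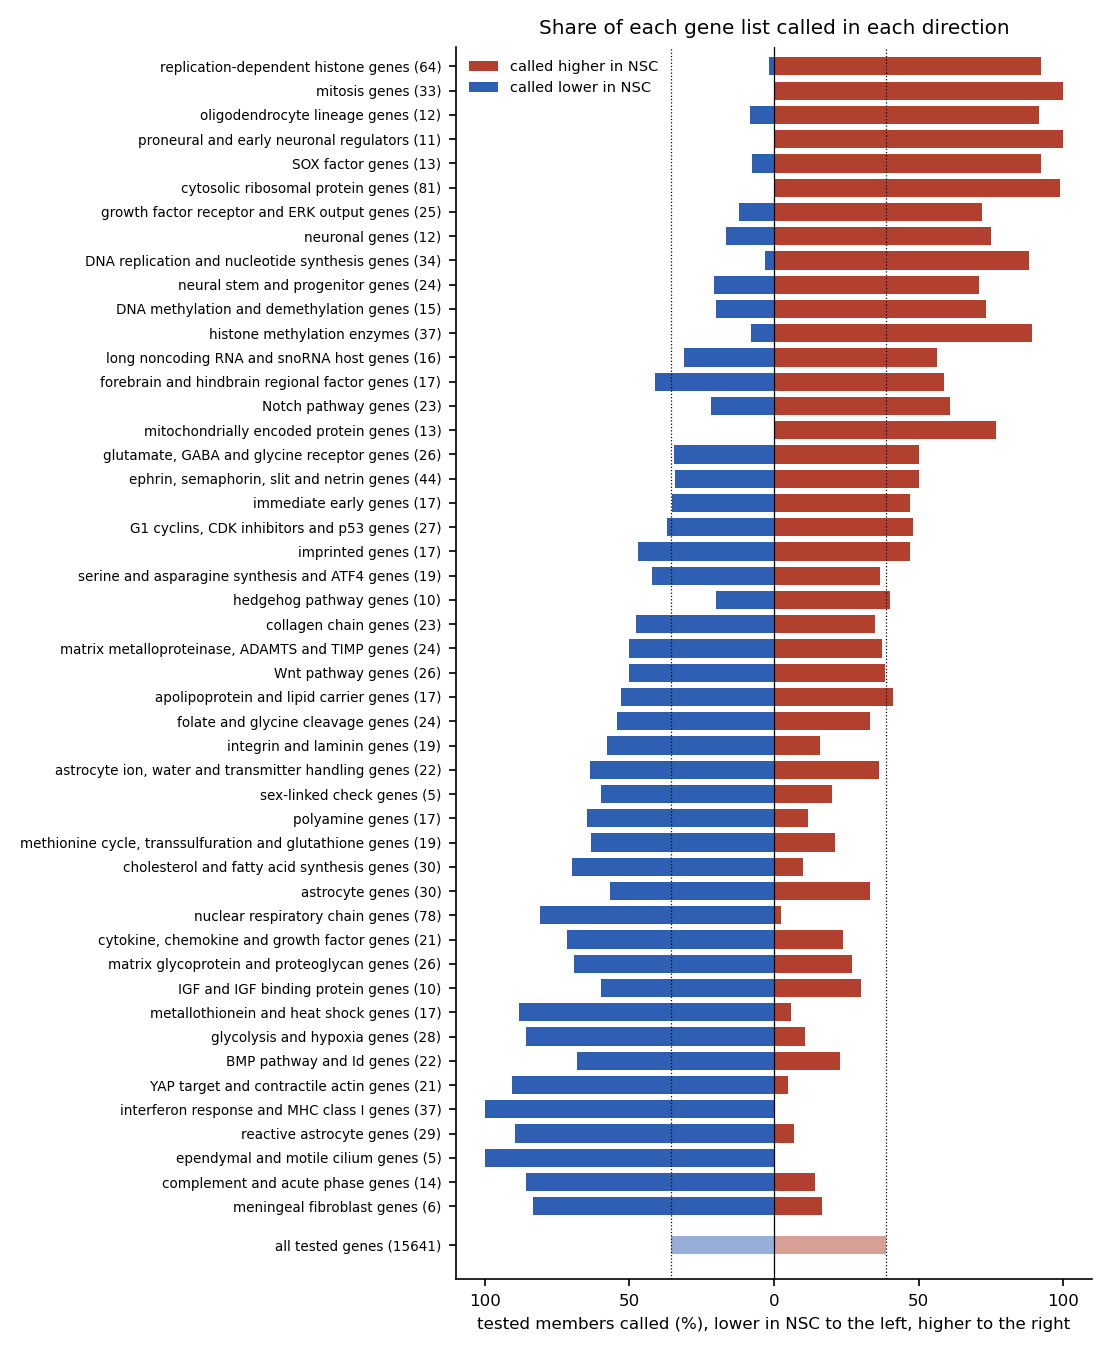
Share of the tested members of 48 gene lists called higher (right, red) or lower (left, blue) in NSC, ordered by median difference, with the number tested in brackets and all tested genes at the bottom; dotted lines carry the shares of all genes, 38.6% and 35.5%. Histone (3.56) and mitosis genes (2.75) have the highest medians and complement (-3.52) and meningeal genes (-3.54) the lowest of the lists shown.

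Genes of astrocyte transport and transmitter handling differed one by one. Of 22 tested, 8 were higher in NSC and 14 lower (median -0.46), and none missed the threshold. Slc38a3, which exports glutamine, stood at 43.1, 43.4 and 39 FPKM in NSC and 354, 358 and 328 FPKM in Astrocytes (log2 difference -3.02, SE 0.079, adjusted p = 1.464e-10), so each NSC library lay below each Astrocytes library. Aqp4 was likewise lower and Slc6a11 higher, with the values given above. Transmitter receptor genes had 13 of 26 higher and 9 lower (12 and 12 with a common FPKM total). The AMPA receptor genes went apart, Gria1 at 2.21 ± 0.971 against 61.7 ± 3.88 FPKM (log2 difference -4.33, SE 0.18, adjusted p = 5.484e-09) and Gria2 at 81.2 ± 1.87 against 26.4 ± 0.215 FPKM (log2 difference 1.58, SE 0.046, adjusted p = 3.207e-10). Grm5, a metabotropic glutamate receptor of young astrocytes, stood at 57.4 ± 3.44 against 1.64 ± 0.457 FPKM (log2 difference 4.48, SE 0.10, adjusted p = 5.584e-11), Grik3 was higher (1.95) and the GABA receptor subunit Gabrb1 lower (-3.10). Lipid carriers were mixed, 7 of 17 higher and 9 lower: Clu was lower, and the cholesterol exporters Abca1 (0.80) and Abcg1 (1.09) were higher. Apoe, the main apolipoprotein of the brain, was abundant in both and lower in NSC (3685 against 5375 FPKM, -0.54).

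BMP pathway and Id genes were lower in NSC, 15 of 22 against 5 higher (median -1.42). The number higher was 3 with a common FPKM total and without NSC replicate 1 or Astrocytes replicate 3. BMP signalling drives astrocyte formation, and the Id genes are its classical targets. Among the ligands, Bmp6 stood at 0.0828, 0.0808 and 0.0529 FPKM in NSC and 25.4, 27.3 and 23.9 FPKM in Astrocytes (log2 difference -4.63, SE 0.057, adjusted p = 1.335e-12), while Bmp7 was higher in NSC (3.63 against 0.76 FPKM, 1.39). Nog, the secreted inhibitor noggin, was also lower in NSC (1.16 ± 0.166 against 29.1 ± 3.26 FPKM, log2 difference -3.79, SE 0.083, adjusted p = 4.581e-11). Of the receptors Bmpr1a was lower (-1.37) and Bmpr1b higher (1.24). All 4 Id genes were lower, Id1 at 15 against 122 FPKM (-2.93), Id2 at 28 against 145 FPKM (-2.33), Id3 at 36.7 against 264 FPKM (-2.81) and Id4 at 17.3 against 79.8 FPKM (-2.14). The inhibitory Smad6 followed them (0.138 ± 0.0499 against 7.58 ± 0.684 FPKM, log2 difference -2.91, SE 0.071, adjusted p = 8.93e-11).

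YAP targets and contractile genes were lower in NSC, 19 of 21 (median -1.78). Thbs1 stood at 0.867, 0.702 and 0.774 FPKM in NSC and 176, 185 and 177 FPKM in Astrocytes (log2 difference -6.67, SE 0.054, adjusted p = 1.22e-13), with a gap between the cultures far beyond their spread. Cyr61 and Ctgf, matricellular targets of YAP, were 1.54 against 71.6 FPKM (-4.83) and 0.109 against 17.5 FPKM (-4.06). Tagln2, a transgelin, was the one higher (1.50). Matrix glycoproteins and proteoglycans had 18 of 26 lower and 7 higher (median -1.22). Fmod, a collagen-binding proteoglycan, stood at 0.0186 ± 0.0269 against 43.1 ± 0.641 FPKM (log2 difference -5.44, SE 0.045, adjusted p = 1.22e-13) and Cemip, which breaks down hyaluronan, at 0.351 ± 0.0288 against 57.6 ± 1.31 FPKM (log2 difference -5.44, SE 0.054, adjusted p = 3.99e-13). Fbln2 and the fibrillin Fbn2 (2.48) were higher. Collagen genes had 11 of 23 lower and 8 higher; the basement membrane chains Col4a5 and Col4a6, which share a promoter region, were both lower (-2.99 and -4.08), as was Col8a1 (-2.84), and Col27a1 (2.72) and Col6a3 (2.13) were higher. Of 19 integrin and laminin genes 11 were lower and 3 higher (10 and 5 with a common protein-coding total), with the integrin chains Itga1, Itga3 and Itga7 lower (-3.24, -3.99 and -2.65) and the basement membrane proteins Lamb1 and Nid1 higher (2.42 and 1.57). Proteases of the matrix and their inhibitors split 9 higher and 12 lower of 24; Timp2, an inhibitor, was 11.6 against 110.1 FPKM (-3.14), Adamts8 and Adamts16 were lower (-2.08 and -3.43) and Adamts6 and Adamts12 higher (1.79 and 3.62).

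Complement, acute phase and reactive astrocyte genes were lower in NSC. Of 14 complement and acute phase genes 12 were lower, each by at least 2-fold, and 2 higher (median -3.52); of 29 reactive astrocyte genes 26 were lower and 2 higher (-2.25). Cp, which oxidises iron, stood at 22.1, 20.6 and 20.9 FPKM in NSC and 460.5, 489.7 and 447 FPKM in Astrocytes (log2 difference -4.39, SE 0.058, adjusted p = 1.859e-12). Lcn2, a siderophore-binding lipocalin, stood at 0.0275, 0.0311 and 0 FPKM in NSC and 44.7, 50 and 41 FPKM in Astrocytes (log2 difference -5.50, SE 0.085, adjusted p = 5.123e-12). Neither overlapped between the cultures, and Lcn2 was below 0.1 FPKM in each NSC library. The 2 complement genes that were higher were C2 (10.5 against 2.07 FPKM, 1.94) and Cfb (0.46; adjusted p = 0.0547 with a common FPKM total). B3gnt5, a glycosyltransferase, was the clearest exception of the reactive list (19.6 against 4.52 FPKM, 1.91); Fkbp5, induced by glucocorticoids (0.36, adjusted p = 0.0392), was not called under 9 of its 15 alternatives (adjusted p = 0.0614 to 0.734).

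All 37 interferon response and MHC class I genes tested were lower in NSC, 34 of them by at least 2-fold (median -2.21). Ifit3, an interferon-induced gene, stood at 0.724, 0.515 and 0.581 FPKM in NSC and 29.6, 30.9 and 25.6 FPKM in Astrocytes (log2 difference -4.21, SE 0.081, adjusted p = 1.983e-11). Ifit1, of the same gene family, stood at 0, 0.0223 and 0.0199 FPKM in NSC and 6.33, 7.25 and 5.78 FPKM in Astrocytes (log2 difference -2.87, SE 0.07, adjusted p = 9.592e-11). Ddx58, the RNA sensor RIG-I, was 2.54 ± 0.0503 against 17.4 ± 0.853 FPKM (log2 difference -2.38, SE 0.058, adjusted p = 9.482e-11), with each NSC library above 1 FPKM. Isg15, a ubiquitin-like modifier, was 0.224 against 3.94 FPKM (-2.01). The promoters of 3 members are shown because they carry GAAANNGAA, the core of the interferon-stimulated response element; capitals mark it or its reverse complement, with overlapping matches merged, in the last 120 bases before the RefSeq start, 130 for Ifit3 (GRCm38.p6): Ifit1 at chr19:34640769-34640888, plus strand, Ifit3 at chr19:34583399-34583528, plus strand and Isg15 at chr4:156200819-156200938, minus strand.
Ifit1: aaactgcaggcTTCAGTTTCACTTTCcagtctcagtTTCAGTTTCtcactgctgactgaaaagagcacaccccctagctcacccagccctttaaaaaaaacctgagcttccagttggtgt
Ifit3: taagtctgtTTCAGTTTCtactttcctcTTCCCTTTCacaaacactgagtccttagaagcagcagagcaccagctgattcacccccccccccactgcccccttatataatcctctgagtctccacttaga
Isg15: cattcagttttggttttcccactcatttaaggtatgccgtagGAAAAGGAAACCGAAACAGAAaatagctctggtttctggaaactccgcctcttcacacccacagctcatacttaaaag
On both strands of 250 bases the motif was present in 14 of 28 members with an entry (50%), in 7.13% of all 32851 promoters and in 7.38% of tested genes. For YAP and contractile genes GGAATG, the TEAD motif, was present in 9 of 17 with an entry (52.9%) and in 12.6% of all promoters. Thbs1, Cyr61 and Ctgf had no entry and were not read, and the 9 included Tagln2, which was higher in NSC.

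Secreted signals were mostly lower in NSC. Of 21 cytokine and growth factor genes 15 were lower in NSC and 5 higher (median -1.13). Cntf, a trophic factor of astrocytes, was 1.9 ± 0.244 against 132 ± 17.2 FPKM (log2 difference -5.52, SE 0.10, adjusted p = 1.643e-11). Csf1, the growth factor of microglia, stood at 3.55 ± 0.198 against 68.2 ± 1.51 FPKM (log2 difference -3.93, SE 0.056, adjusted p = 2.892e-12). Tgfb3 stood at 0.424 against 20.9 FPKM (-3.94). Ptn, pleiotrophin, was far higher in NSC, at 819, 768 and 668 FPKM in NSC and 67, 75 and 61.1 FPKM in Astrocytes (log2 difference 3.45, SE 0.10, adjusted p = 3.335e-10), beside its relative Mdk. Among 10 IGF genes, the binding proteins Igfbp3 and Igfbp5 were lower (17.8 against 174 FPKM, -3.22, and 5.65 against 87.1 FPKM, -3.72), Igfbp4 higher (2.52), the ligand Igf1 lower (-1.85) and its receptor Igf1r higher (1.76).

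**Figure D4:**
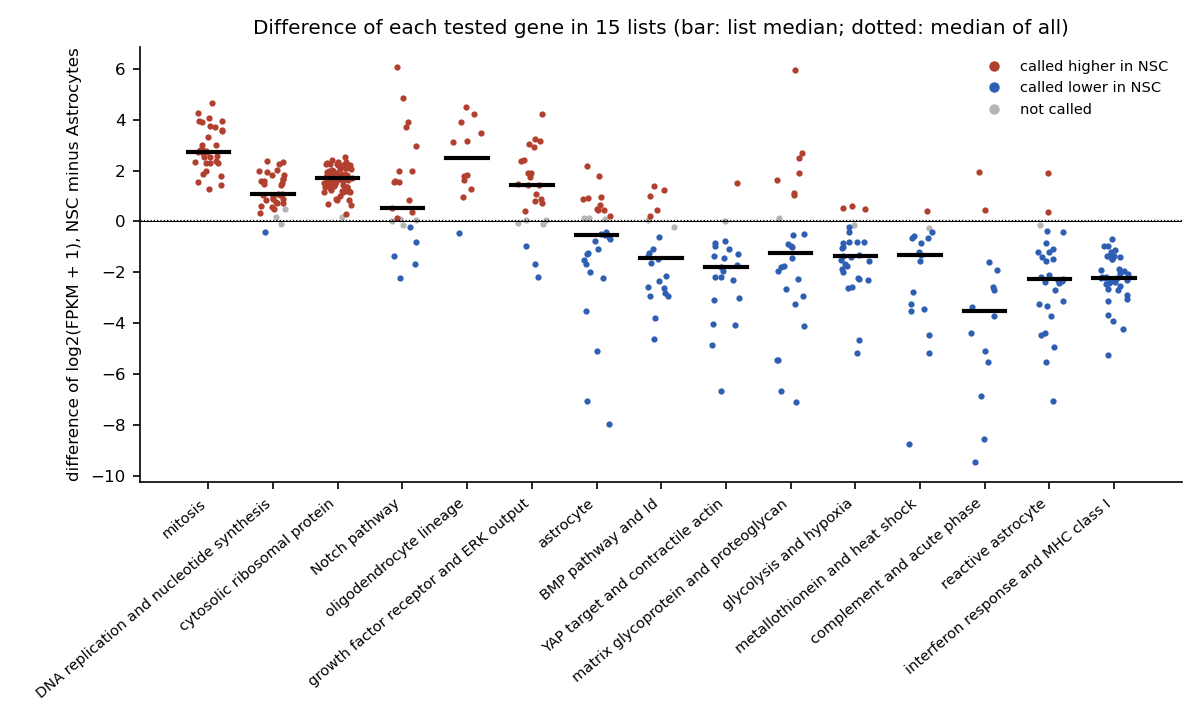
Difference of log2(FPKM + 1), NSC minus Astrocytes, of every tested member of 15 lists, red where called higher, blue where called lower and grey where not called; black bars are list medians and the dotted line is the median of all genes, 0.056. All mitosis points lie above 1 and all interferon points below 0, while the astrocyte and matrix lists reach far to both sides.

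Glycolysis, stress and sterol genes were lower in NSC. Of 28 glycolysis and hypoxia genes 24 were lower and 3 higher (median -1.37; 25 and 1 with a common FPKM total). Pfkp, a phosphofructokinase, stood at 1.26, 0.854 and 1.2 FPKM in NSC and 73.7, 82.3 and 66.8 FPKM in Astrocytes (log2 difference -5.16, SE 0.09, adjusted p = 1.077e-11). Slc16a1, which exports lactate, stood at 8.92, 8.48 and 7.47 FPKM in NSC and 229, 255 and 211 FPKM in Astrocytes (log2 difference -4.64, SE 0.078, adjusted p = 8.566e-12). The cultures did not overlap at either gene. The glucose transporter Slc2a1 was 1.73 against 15.8 FPKM (-2.62), and the vasodilator adrenomedullin, Adm, was higher (1.39 against 0.581 FPKM, 0.60). The neuronal glucose transporter Slc2a3 was higher too (0.53; adjusted p = 0.247 with a common FPKM total and 0.0541 in the fit of 6 libraries). Metallothionein and heat shock genes were lower for 15 of 17 (median -1.30): beside Hspb8, the lens chaperone Cryab was 9.59 against 375 FPKM (-5.15), Hspb1 0.106 against 23.8 FPKM (-4.47) and the metal-binding Mt1 900.1 against 6190.0 FPKM (-2.78). Dnajb1 was the one higher (0.39; adjusted p = 0.695 with a common FPKM total). Cholesterol and fatty acid synthesis genes were lower for 21 of 30 and higher for 3 (median -0.52). The number higher was 5 or 6 with quantile normalization, a common protein-coding total or the replicate block, or without NSC replicate 3. The list held Scd1, a fatty acid desaturase, at 6.4 ± 0.468 against 91.6 ± 2.45 FPKM (log2 difference -3.65, SE 0.054, adjusted p = 3.771e-12), the sterol enzyme Hsd17b7 lower (-2.19), and the thiolase Acat2 and the fatty acid elongase Elovl6 higher (0.64 and 1.00).

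Enzymes of one-carbon metabolism, the subject of the series, went both ways. Folate carries one-carbon units from serine and glycine to nucleotides and to methionine, which then donates methyl groups as S-adenosylmethionine. Of 24 folate and glycine cleavage genes 8 were higher in NSC, 13 lower and 3 not called (median -0.41); with a common FPKM total 5 were higher and 15 lower (median -0.73). Tyms, which makes thymidylate, stood at 9.15, 7.54 and 6.86 FPKM in NSC and 1.37, 1.47 and 1.09 FPKM in Astrocytes (log2 difference 1.93, SE 0.11, adjusted p = 4.243e-08). Mthfd1l, which releases formate from mitochondria, stood at 4.45, 4.7 and 3.67 FPKM in NSC and 0.902, 1.1 and 0.986 FPKM in Astrocytes (log2 difference 1.40, SE 0.076, adjusted p = 3.964e-08). Both were higher in every NSC library. Mtr, methionine synthase (ENSMUSG00000021311.9, bases 12182712 to 12258113 of chromosome 13, on the minus strand), went the other way, at 4.59, 5.09 and 4.38 FPKM in NSC and 15.9, 15.8 and 16 FPKM in Astrocytes (log2 difference -1.57, SE 0.063, adjusted p = 3.574e-09). Mthfd2, of the mitochondrial branch, was 1.19 ± 0.452 against 2.25 ± 0.391 FPKM (log2 difference -0.58, SE 0.14, adjusted p = 0.00302). The folate receptor Folr1 stood at 0.0629 ± 0.0304 against 13.8 ± 1.47 FPKM (log2 difference -3.79, SE 0.087, adjusted p = 6.095e-11). Amt, of the glycine cleavage system, stood at 20.2 against 77.5 FPKM (-1.88). The serine hydroxymethyltransferases Shmt1 and Shmt2 were higher (1.61 and 0.37, the latter -0.0069 with adjusted p = 0.947 under a common FPKM total) and the bifunctional enzyme Mthfd1 lower (-0.94).

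Methionine cycle and glutathione genes were lower in NSC for 12 of 19 and higher for 4 (median -0.47; 14 and 2 with a common FPKM total). Mat2a, which makes S-adenosylmethionine (ENSMUSG00000053907.10, bases 72432799 to 72439558 of chromosome 6, on the minus strand), stood at 52.4, 50.4 and 50.5 FPKM in NSC and 99.5, 99.5 and 94.2 FPKM in Astrocytes (log2 difference -0.92, SE 0.053, adjusted p = 6.329e-08), with no overlap. Ahcy, which clears its product, was 4.44 ± 0.816 against 6.96 ± 1.09 FPKM (log2 difference -0.55, SE 0.20, adjusted p = 0.0264), a call that ended with a common protein-coding total (adjusted p = 0.0573), without NSC replicate 2 (0.0825) or 3 (0.0757) and without Astrocytes replicate 3 (0.0934). Gclc and Gclm, the chains of the enzyme that starts glutathione synthesis, were lower (-1.83 and -1.38), as was Ahcyl2 (-1.48); Gamt, which uses methyl groups to make creatine, and Cdo1, which oxidises cysteine, were higher (1.74 and 1.55). Serine synthesis and ATF4 genes were mixed, 7 higher and 8 lower of 19, and the larger number changed side with quantile normalization (9 and 8) and a common protein-coding total (10 and 8). Aldh18a1, of proline synthesis, and Slc7a11, the cystine transporter, were higher (1.52 and 0.83), and Slc3a2, its partner chain, Got1 and Nupr1 lower (-1.85, -1.84 and -1.69). Polyamine genes had 11 of 17 lower and 2 higher (median -0.47; the number higher was 1 to 5 over the alternatives, 4 without Astrocytes replicate 2). Odc1, the entry enzyme, was 66.6 ± 5.19 against 80.4 ± 8.21 FPKM (log2 difference -0.27, SE 0.085, adjusted p = 0.0154), not called in the fit of 6 libraries (adjusted p = 0.0563) or without NSC replicate 3 (0.058) or Astrocytes replicate 2 (0.0576). Sat1, which acetylates polyamines for export, was 15.3 against 63.2 FPKM (-1.97), Amd1, which supplies the aminopropyl group, -1.08, the antizyme Oaz2 -1.09, and the oxidase Smox 0.92 on the log2 scale. Dhps, which modifies eIF5A, was called higher (0.20, adjusted p = 0.0316) but not under 8 of 16 alternatives (adjusted p = 0.0598 to 0.159), with a difference of -0.18 under a common FPKM total.

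**Figure D5:**
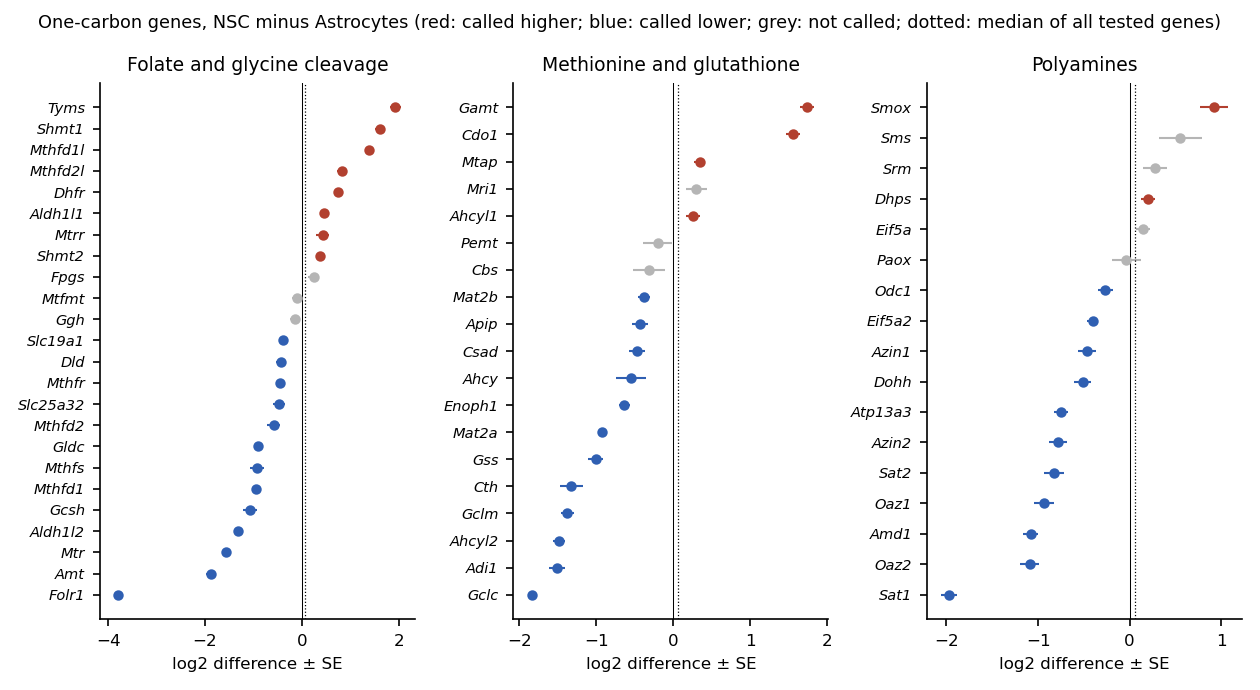
Difference of log2(FPKM + 1), NSC minus Astrocytes, with its SE, for every tested gene of the folate (24), methionine (19) and polyamine (17) lists, red where called higher, blue where called lower and grey where not called. Tyms, Shmt1 and Mthfd1l lie at the top and Folr1, Amt and Mtr at the bottom of the folate genes; Mat2a and Gclc lie on the lower side of the methionine genes.

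Enzymes that place or remove methyl marks were higher in NSC. Of 15 DNA methylation genes 11 were higher and 3 lower (median 0.87). Dnmt1, the maintenance methyltransferase, stood at 11.9, 13.2 and 11.7 FPKM in NSC and 5.12, 5.88 and 4.9 FPKM in Astrocytes (log2 difference 1.07, SE 0.069, adjusted p = 1.526e-07). Uhrf1, which recruits it to replicating DNA, stood at 7.52, 9.79 and 8.55 FPKM in NSC and 0.16, 0.439 and 0.2 FPKM in Astrocytes (log2 difference 2.93, SE 0.10, adjusted p = 7.53e-10). Uhrf2, its relative, was 43.6 against 17.3 FPKM (1.28), and the methyl-binding Mbd1 and Mbd4 were lower (-0.45 and -0.52). Of 37 histone methylation enzymes 33 were higher and 3 lower (median 0.71), and with a common FPKM total 19 were higher and 3 lower (median 0.37). Ezh2, the Polycomb methyltransferase, stood at 34.3 ± 0.772 against 10.4 ± 0.793 FPKM (log2 difference 1.63, SE 0.089, adjusted p = 3.905e-08), the demethylases Kdm5b and Kdm6a were higher (1.35 and 1.19), and Setd7 and Setd8 lower (-2.74 and -0.84). Kdm6a lies on the X chromosome, and the part of the mix of sexes in its difference was not tested.

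Other signalling and patterning genes were mixed. Wnt genes had 10 of 26 higher and 13 lower: Wnt7b stood at 19.4 ± 1.38 against 0.577 ± 0.0319 FPKM (log2 difference 3.69, SE 0.072, adjusted p = 2.29e-11) and the frizzled receptor Fzd9 at 15.8 against 0.51 FPKM (3.47), against Wnt5b at 1.88 against 21.8 FPKM (-2.98), Wnt9a (-2.79) and Fzd5 (-2.32). Of 10 hedgehog genes 4 were higher and 2 lower (2 and 5 with a common FPKM total). The hedgehog receptor and target Ptch1 stood at 41.9 ± 0.571 against 8.04 ± 0.926 FPKM (log2 difference 2.25, SE 0.086, adjusted p = 2.376e-09), Hhip, another target, was higher (1.30), Sufu too (0.67; adjusted p = 0.0883 with a common FPKM total), and the co-receptors Gas1 and Cdon were lower (-0.60 and -0.41). Guidance genes had 22 of 44 higher and 15 lower (19 and 19 with a common FPKM total), from Plxnb3 (3.50), Ephb3 (3.08) and Efna2 (1.86) to Sema3b (-4.86) and Sema3e (-1.68). Of 17 regional factors 10 were higher and 7 lower (7 and 7 with a common FPKM total). The homeobox factors Meis1, Irx3 and Irx5 were higher (1.63, 0.85 and 1.01) and Otx1 lower (-0.54). Imprinted genes had 8 higher and 8 lower of 17; Grb10 (9.46 against 0.202 FPKM, 3.11) and Nnat (748 against 47.8 FPKM, 3.94) were higher, Impact lower (-0.57). Among long noncoding RNAs Neat1, of nuclear paraspeckles, was 2.83 ± 0.163 against 78.5 ± 5.64 FPKM (log2 difference -4.38, SE 0.06, adjusted p = 2.197e-12). Sox2ot was lower (-0.71), and Pantr1 and the snoRNA hosts Snhg5 and Epb41l4aos were higher (2.30, 1.78 and 1.87). Of 246 snoRNA genes 104 (42.3%) were higher and 6 (2.44%) lower, against 38.6% and 35.5% of all tested genes. Xist, of the inactive X, stood at 103 against 22.4 FPKM (2.16), and the Y-linked Ddx3y at 6.91 against 15.1 FPKM (-1.02), Eif2s3y at -0.56 and Uty at -0.46 on the log2 scale, the last not called with a common protein-coding total (adjusted p = 0.0584); both kinds were present in all 6 libraries.

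Markers of other brain cells were low with 3 exceptions, the early oligodendrocyte genes above and a few meningeal and ependymal genes in Astrocytes. Of 16 microglial genes 14 were below the filter, Trem2, Tyrobp and C1qc were listed at 0 in all 6 libraries. The summed level was 27.9 to 30.8 FPKM in NSC and 22.9 to 27.5 FPKM in Astrocytes. None of those 14 reached 1 FPKM in any library. Cd68, a lysosomal protein of phagocytes, was 1.69 against 0.909 FPKM (0.51). Of 14 endothelial and mural genes 12 were below the filter and Cdh5 and Abcc9 were listed at 0; Kdr, a VEGF receptor, was 0.103 against 1.76 FPKM (-1.32). Of 17 meningeal fibroblast genes found, 6 were tested and 5 of them were lower in NSC. Ogn, Fmod and Islr (0.831 against 92.6 FPKM, -5.67) differed the most. Col1a1 and Foxc1 also reached the filter and were the others called lower in NSC. Ptgds was higher (70.8 against 20.5 FPKM, 1.74). The fibroblast genes Col1a2, Col3a1, Dcn and Lum were below 0.1 FPKM in all 6 libraries. The summed meningeal level was 66.4 to 77.7 FPKM in NSC and 301 to 354 FPKM in Astrocytes. All 5 tested of 14 ependymal and motile cilium genes were lower in NSC, including Foxj1, which switches on motile cilium genes (2.27 ± 0.156 against 37.5 ± 4.14 FPKM, log2 difference -3.55, SE 0.094, adjusted p = 1.663e-10), Rsph1 (-2.57) and Cfap54 (-1.75), with a summed level of 7.02 to 7.45 FPKM in NSC and 67.5 to 81.2 FPKM in Astrocytes; Sntn was listed at 0. Rsph1 passed the filter through Astrocytes alone, whereas Foxj1 and Cfap54 reached 1 FPKM in all 6 libraries. The part of meningeal or ependymal cells in the Astrocytes values was not tested.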

How the data were processed

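RNA sequencing values were deposited as one table per library, in FPKM with a confidence interval and a status for each gene identifier, per the file headers. Cufflinks and GRCm38 are named in the submitters' processing notes, without a version; the aligner and the use of strand are not given in the sources used here, so overlapping and antisense genes may share reads. The members of the comparison and the gene lists were chosen with earlier results of these data known. Identifiers on several lines (45 of 53932) were summed. A gene was tested if it reached 1 FPKM in 3 of the 6 libraries with status OK in all 6, and log2(FPKM + 1) was fitted in limma 3.58.1 (R 4.3.3) with a trended prior, 1 mean per group over 12 libraries and 8 residual degrees of freedom, so the other groups add to the spread only. A value without status OK in the other 6 libraries entered as missing (10 genes). Calls used a two-sided test with Benjamini-Hochberg adjusted p below 0.05. Tables were handled in Python 3.11.15 with pandas 2.3.3 and NumPy 2.4.6, figures were drawn with matplotlib 3.10.9, and the fit was tested on simulated data. Fragments per library were inferred from the deposited intervals as if these covered counting error only, so the numbers are rough. Each interval belongs to 1 library and does not describe the spread between libraries.

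Genes were named by 3 rules: the 12 largest differences each way among called, non-overlapping genes of at least 5 FPKM, without unnamed models, pseudogenes, small RNAs and histone copies; from each list, 3 called members with the smallest p in its larger direction and up to 2 in the other; and 28 fixed genes. Apoe, Bmpr1a, Ccnb1, Ccnb2, Ccnd2, Ccnd3, Cdc20, Col1a1, Etv1, Etv4, Etv5, Fgfr1, Fgfr3, Foxc1, Hey2, Id1, Id2, Id3, Id4, Isg15, Lfng, Mfng, Mt1, Mthfd1, Notch1, Notch2, Notch3, Nrarp, Rbpj, Rps27l, Shmt1, Shmt2 and Tnc, and the genes named as below the level tested, were chosen after their values were seen. Tubb3, Foxc2, Cdt1, Gins2, Mvd, Slc7a5, C1s and Whsc1 were listed but are not analysed here. Promoter sequences are from RefSeq (GRCm38.p6), where 9059 tested genes had an entry. Alternatives were other pseudocounts, filters, scalings, a fit of 6 libraries, a replicate block and leaving out each library. Some genes that these rules took are not reported here.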

Additional observations from a re-analysis of the deposited data

How the results depend on the processing

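Counts of called genes kept within 1.5 times of the values reported under pseudocounts of 0.1 and 0.5, median-of-ratios scaling, quantile normalization, a common protein-coding total, a fit of the 6 libraries and no filter, with 1 filter and 1 scaling as exceptions. With a mean of at least 5 FPKM required, 9986 genes were tested and 3816 were called higher in NSC, 3699 lower, 1387 at least 2-fold higher and 1392 at least 2-fold lower; fewer genes tested is part of that setting. With a common FPKM total 3539 were called higher, 7667 lower, 1557 at least 2-fold higher and 3375 at least 2-fold lower; the cause was not tested. Leaving out 1 library at a time gave 5614 to 6023 higher, 5204 to 5623 lower, 2082 to 2227 at least 2-fold higher and 2134 to 2300 at least 2-fold lower. From the genes taken by the naming rules or named besides, 268 were followed through the alternatives. Of these, 244 kept their side of the threshold under every alternative in which they were tested, and none was called in the opposite direction. The replicate numbers do not establish pairs: deviations of same-numbered libraries correlated at 0.032, 0.101 and 0.116, and those of differently numbered ones at -0.0974 to 0.0109, so each library correlated best with its own number, a hint from the data and not the design. With the replicate block 6057 genes were called higher and 5586 lower, 2157 and 2217 by at least 2-fold. Depth limits values near 1 FPKM, whose deposited intervals reach 28.9% to 32.6% to either side.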
